A study of Homo sapiens with 6 samples.

Results

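The genes of secreted Wnt ligands, their Frizzled receptors and 2 families of secreted Wnt antagonists, the Dickkopf and secreted Frizzled-related proteins, were followed in SH-SY5Y cells with a stable knockdown of TDP-43. They were taken by symbol alone, as every gene named WNT, FZD, DKK1 to DKK4 or SFRP1 to SFRP5 in the deposited table, which gave 37 of 26372 genes. These were 19 WNT, 10 FZD, 4 DKK and 4 SFRP genes.

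SH-SY5Y is a human neuroblastoma line of the sympathetic lineage, and TDP-43, the product of TARDBP, binds RNA in the nucleus and controls its splicing. The knockdown libraries, 3 in number, came from cells infected with a lentivirus carrying an shRNA against TDP-43 and kept under puromycin. The control libraries, also 3, came from cells infected with a control shRNA. Poly(A) RNA was sequenced, and values are FPKM, fragments counted relative to transcript length and to all mapped fragments of the library. Means are given ± SD over the 3 libraries of an arm. Each arm carries 1 shRNA name, and the labels do not say whether it is a clone or a pool, whether the control cells were selected in the same way, or whether the 3 libraries of an arm came from separate cultures. The p-values below therefore rest on the spread among these libraries alone, and that spread may be technical.

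Wnt proteins are lipid-modified signals that a cell secretes to itself and its neighbours. In the canonical branch a Wnt bound to a Frizzled and to LRP5 or LRP6 stops the destruction of β-catenin, which then enters the nucleus and works with TCF and LEF factors. WNT5A and WNT5B act mostly without β-catenin, through Frizzleds and ROR receptors, on cell shape and movement. Dickkopf-1 blocks LRP5 and LRP6, whereas secreted Frizzled-related proteins bind Wnts outside the cell. In the embryo these signals help to induce the neural crest, from which the sympathetic lineage arises.

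TARDBP had 21.9, 20.7 and 21.0 FPKM in the knockdown libraries, against 50.3, 50.3 and 47.7 FPKM in the control libraries (log2 fold change -1.19, SE 0.045, adjusted p = 6.69e-08). The labels and the targeted gene therefore matched. Fold changes are knockdown over control on the log2(FPKM + 1) scale, which understates the change of low genes. Calls are those of limma at an adjusted p under 0.05, with the fit and the Benjamini-Hochberg adjustment over the 13434 genes that averaged at least 1 FPKM. Relative depth, read from the steps between low values, was 69.7%, 52.8% and 94.4% of the deepest library in knockdown libraries 1 to 3, against 100%, 96.0% and 84.2% in control libraries 1 to 3. Absolute depth is unknown.

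Of the 37 genes, 16 averaged at least 1 FPKM across the 6 libraries and were tested, 7 lay between 0.1 and 1 FPKM, 10 lay lower, and DKK4, FZD10, WNT2 and WNT9B were listed at 0 throughout. The 16 comprised 5 WNT, 7 FZD, 3 DKK and 1 SFRP gene. WNT6, FZD2, FZD3 and FZD7 were called higher in the knockdown, and DKK1, DKK2, DKK3, SFRP1, WNT5A, WNT5B, FZD4 and FZD6 lower, while FZD1, FZD8, WNT2B and WNT3 were not called. Calls were common in this table, with 30.5% of all tested genes called higher and 35.9% called lower, so that 4 higher of 16 is near the background and 8 lower is above it by a small number of genes. A change of at least 2-fold on this scale was less common, at 3.31% of tested genes higher and 7.95% lower. It was reached upwards by WNT6 and downwards by DKK1, WNT5B, WNT5A, FZD4, DKK3 and FZD6. The median log2 fold change of the 16 was -0.52, against -0.02 over all tested genes. The values of the libraries did not overlap between the arms for 14 of the 16, the exceptions being FZD1 and WNT3, against 70.8% of all tested genes. With 3 libraries against 3, the exact permutation test of such a gene, two-sided, gives p = 0.1, the smallest it can give.

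**Figure D1:**
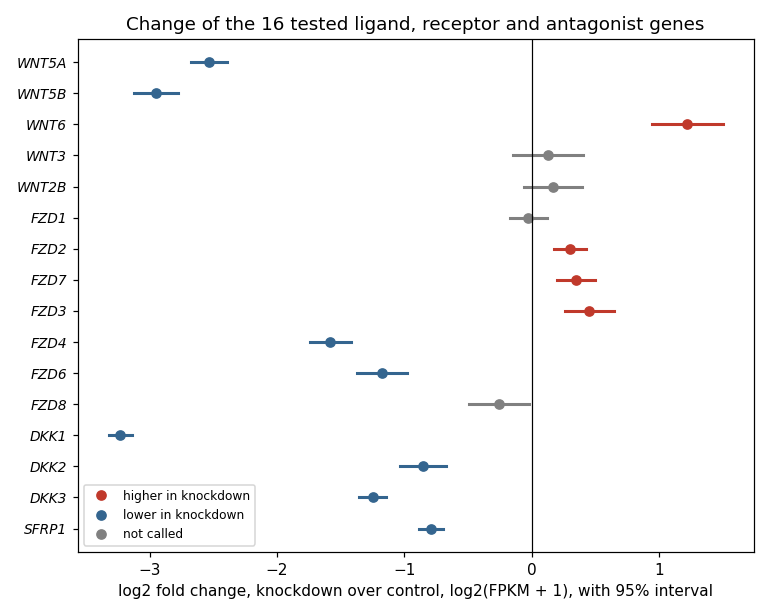
Log2 fold change, knockdown over control on the log2(FPKM + 1) scale, of the 16 tested ligand, receptor and antagonist genes, with 95% confidence intervals from limma as bars (x axis), 1 gene a row; red points were called higher in the knockdown, blue points lower and grey points not at all. DKK1, WNT5B and WNT5A lie farthest left, at -3.23, -2.95 and -2.54, and WNT6 farthest right, at 1.22.

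The starts of DKK1 and of the WNT genes past a 2-fold change, WNT5A, WNT5B and WNT6, are shown beside their values. DKK3, FZD4 and FZD6, also past a 2-fold change, are not printed. RefSeq promoters on GRCh38.p14 were matched for 28 starts of 25 of the 37 genes, including 9 of the 16 tested. The 250 bases before the start are printed 5′ to 3′ on the strand of the gene, in lower case, with capitals on any match, on either strand, to CTTTGA (the core of a TCF/LEF site), TGANTCA (an AP-1 site) or GGAATG (a TEAD site). WNT5A and WNT5B each have 2 RefSeq starts, the first of which is shown, and FPKM per gene do not tell which start was used.
DKK1 (chr10:52314031-52314280, plus strand): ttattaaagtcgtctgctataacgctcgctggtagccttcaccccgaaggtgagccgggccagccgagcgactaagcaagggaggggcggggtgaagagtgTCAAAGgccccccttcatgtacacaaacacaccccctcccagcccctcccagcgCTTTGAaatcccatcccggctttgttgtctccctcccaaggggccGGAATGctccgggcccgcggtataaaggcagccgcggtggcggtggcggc
WNT5A (chr3:55487307-55487556, minus strand): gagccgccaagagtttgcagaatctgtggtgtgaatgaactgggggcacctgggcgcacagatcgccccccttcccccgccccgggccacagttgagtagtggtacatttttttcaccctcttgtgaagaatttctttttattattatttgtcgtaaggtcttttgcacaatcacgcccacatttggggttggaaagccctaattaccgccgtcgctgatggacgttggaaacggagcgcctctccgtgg
WNT5B (chr12:1616806-1617055, plus strand): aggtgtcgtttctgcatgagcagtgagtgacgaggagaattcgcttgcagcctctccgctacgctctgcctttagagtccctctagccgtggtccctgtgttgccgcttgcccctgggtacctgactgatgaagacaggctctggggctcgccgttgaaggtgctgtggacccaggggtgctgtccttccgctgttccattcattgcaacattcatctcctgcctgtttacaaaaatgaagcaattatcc
WNT6 (chr2:218859555-218859804, plus strand): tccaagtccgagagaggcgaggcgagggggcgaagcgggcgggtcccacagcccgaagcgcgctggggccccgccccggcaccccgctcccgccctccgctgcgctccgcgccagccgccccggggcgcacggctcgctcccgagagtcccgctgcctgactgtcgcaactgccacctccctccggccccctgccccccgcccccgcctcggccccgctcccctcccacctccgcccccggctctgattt
The DKK1 window held 2 matches to CTTTGA, 1 on each strand, and 1 match to GGAATG, none of which overlapped. The windows of WNT5A, WNT5B and WNT6 held none of the 3 motifs. The WNT6 window was the richest of the 4 in G and C, at 79.2%, against 62.8% for DKK1, 54.8% for WNT5B and 52.8% for WNT5A. Over the 28 matched windows, CTTTGA was found in 1, GGAATG in 1, both of DKK1, and TGANTCA in none. The shares over all 35116 RefSeq promoters, over the same 250 bases and both strands, were 11.2% for CTTTGA, 11.9% for GGAATG and 6.57% for TGANTCA. A match is a run of letters, not a site known to be bound.

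Among the ligands, the pair of WNT5 genes fell and WNT6 rose. WNT5A (3:55465715-55490539, minus strand, GENCODE v29 on GRCh38), which drives cell polarity and migration through ROR receptors and opposes β-catenin signalling in many cells, had 2.08, 1.91 and 1.87 FPKM in the knockdown libraries, against 15.9, 16.7 and 15.8 FPKM in the control libraries. Each knockdown library was thus far below each control library. The means were 1.96 ± 0.112 FPKM in the knockdown and 16.1 ± 0.476 FPKM in the control (SD, n = 3 each), 8.25-fold lower in the knockdown (log2 fold change -2.54, SE 0.0626, adjusted p = 4.57e-09). As these are bulk libraries, fewer cells that make a transcript and less of it per cell cannot be told apart, here or below.

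WNT5B (12:1529891-1647243, plus strand), the closest relative of WNT5A, had 1.11, 0.934 and 0.981 FPKM in the knockdown libraries, against 14.9, 15.2 and 13.4 FPKM in the control libraries. It was near the detection filter in the knockdown and well expressed in the control. The mean was 14.4-fold lower in the knockdown, at 1.01 ± 0.0889 FPKM, against 14.5 ± 0.955 FPKM in the control (log2 fold change -2.95, SE 0.0750, adjusted p = 5.44e-09). The genes lie on different chromosomes. Whether fragments common to both were split in counting is not given in the sources used here.

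WNT6 (2:218859821-218874233, plus strand), a ligand of embryonic epithelia that acts through β-catenin, moved the other way. It had 2.19, 2.17 and 1.75 FPKM in the knockdown libraries, against 0.165, 0.259 and 0.491 FPKM in the control libraries. All knockdown libraries lay above all control libraries, although the level stayed low. The mean was 6.68-fold higher in the knockdown, at 2.04 ± 0.247 FPKM, against 0.305 ± 0.167 FPKM in the control (log2 fold change 1.22, SE 0.122, adjusted p = 3.09e-05). WNT6 passed the filter on low values only through its knockdown libraries.

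WNT10A, a ligand known from tooth and hair development, starts 6129 bases beyond the end of WNT6 on the same strand. It had 0.201, 0.213 and 0.268 FPKM in the knockdown libraries, against 0, 0.0292 and 0 FPKM in the control libraries. Its mean over the 6 libraries was too low for the main test, and with the minimum lowered to 0.1 FPKM it was called higher (log2 fold change 0.28, adjusted p = 0.00952). It passed that lower minimum only through its knockdown libraries. Of the 35 other tested genes within 1000000 bases of WNT6, 12 were called higher and 11 lower, with a median log2 fold change of -0.04.

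WNT3 and WNT2B, both ligands of the canonical branch, were not called. WNT3, needed to form the body axis in the mouse, had 5.28, 3.99 and 5.22 FPKM in the knockdown libraries, against 4.65, 4.75 and 3.60 FPKM in the control libraries, with overlapping arms. The difference was 0.13 on the log2 scale, with a 95% confidence interval from -0.15 to 0.40 (adjusted p = 0.368). WNT2B had 1.43, 1.41 and 1.82 FPKM in the knockdown libraries, against 1.35, 1.14 and 1.31 FPKM in the control libraries. The arms came close without overlapping, and the difference was 0.17 (interval -0.06 to 0.40, adjusted p = 0.161). The exons of WNT2B overlap those of ST7L on the opposite strand over 2661 bases, and ST7L was called higher, with 6.28 ± 1.07 FPKM in the knockdown and 4.62 ± 0.348 FPKM in the control (adjusted p = 0.0157). The sources used here do not say whether strand was used in counting, so the value of WNT2B is uncertain.

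The 19 WNT genes together summed to 13.7, 12.0 and 13.2 FPKM in the knockdown libraries, against 38.4, 39.6 and 36.4 FPKM in the control libraries. The summed ligand level was thus 2.94-fold lower in the knockdown. WNT5A and WNT5B made up 22.9 ± 1.05% of that sum in the knockdown and 80.4 ± 0.170% in the control (SD, n = 3 each). WNT3 was the leading ligand of the knockdown, with 37.1 ± 3.43% of the sum, against 11.3 ± 1.25% in the control. WNT6 held 15.8 ± 2.37% of the sum in the knockdown and 0.810 ± 0.478% in the control. FPKM shares describe transcripts per length and not protein.

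**Figure D2:**
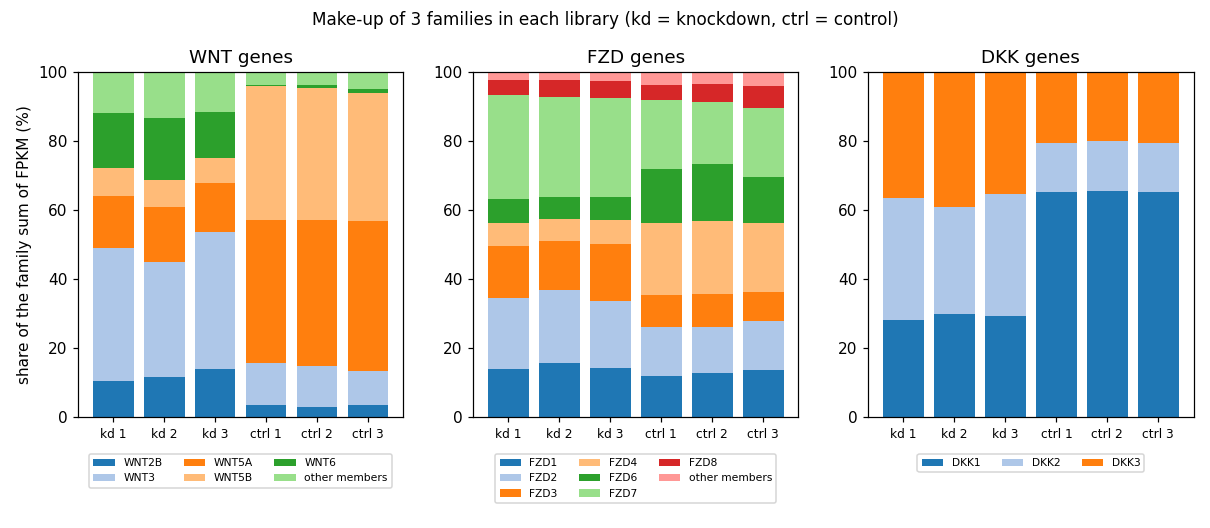
Share of the summed FPKM of the WNT, FZD and DKK genes held by each gene (y axis, percent) in each of the 3 knockdown and 3 control libraries (x axis), as stacked bars; genes with a mean under 1 FPKM are pooled as other members. WNT5A with WNT5B fill on average 22.9% of the WNT bar in the knockdown, against 80.4% in the control, and DKK1 fills 29.1% of the DKK bar in the knockdown, against 65.4% in the control.

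The receptors kept most of their summed level but changed in make-up. FZD2 and FZD7, which with FZD1 form a subfamily of close sequence, were modestly higher in the knockdown, FZD1 was not called, and FZD4 and FZD6 fell. FZD7, a receptor for canonical ligands in embryonic and stem cells and the Frizzled of highest level in the knockdown, had 15.0, 13.4 and 14.1 FPKM in the knockdown libraries, against 11.5, 10.1 and 11.2 FPKM in the control libraries. FZD2, which also takes WNT5A signals, had 10.2, 9.86 and 9.59 FPKM in the knockdown libraries, against 8.06, 7.61 and 7.84 FPKM in the control libraries. The arms of both genes were separate but near, at a log2 fold change of 0.35 for FZD7 (SE 0.0660, adjusted p = 0.00157) and of 0.30 for FZD2 (SE 0.0558, adjusted p = 0.00140). FZD1 had 6.98, 7.23 and 7.01 FPKM in the knockdown libraries, against 6.80, 7.19 and 7.70 FPKM in the control libraries. Its arms overlapped, and its difference of -0.03 had an interval from -0.17 to 0.12 (adjusted p = 0.724) and turned to 0.05 after quantile normalization.

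FZD3 and FZD6, a pair of closely related receptors of the planar polarity branch, were called in opposite directions. FZD3, which guides growing axons in the mouse, had 7.47, 6.57 and 8.17 FPKM in the knockdown libraries, against 5.27, 5.35 and 4.76 FPKM in the control libraries (log2 fold change 0.45, SE 0.0847, adjusted p = 0.00145). FZD6, which orients hairs in the mouse, had 3.42, 2.96 and 3.29 FPKM in the knockdown libraries, against 8.88, 9.25 and 7.59 FPKM in the control libraries (log2 fold change -1.18, SE 0.0859, adjusted p = 4.10e-06). Neither gene overlapped between the arms, and FZD3 exceeded FZD6 in each knockdown library whereas FZD6 exceeded FZD3 in each control library. FZD3 averaged 7.40 ± 0.802 FPKM in the knockdown and 5.12 ± 0.320 FPKM in the control. FZD6 averaged 3.22 ± 0.240 FPKM in the knockdown and 8.57 ± 0.873 FPKM in the control. It shares 138 bases of exon with BAALC-AS1 on the opposite strand, which was listed under 1 FPKM in every library.

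FZD4, the receptor of norrin in retinal vessels as well as of Wnts, had 3.28, 2.95 and 3.48 FPKM in the knockdown libraries, against 12.0, 11.9 and 11.1 FPKM in the control libraries. The arms lay well apart, and the mean was 3.61-fold lower in the knockdown (log2 fold change -1.58, SE 0.0703, adjusted p = 1.71e-07). The exons of FZD4 (11:86945679-86955391, minus strand) overlap those of PRSS23, a secreted protease gene on the opposite strand, over 1399 bases. PRSS23 had 12.3, 12.2 and 13.0 FPKM in the knockdown libraries, against 95.2, 97.2 and 92.0 FPKM in the control libraries (log2 fold change -2.83, adjusted p = 5.01e-10). Within those 1399 bases, out of 7383 exonic bases of FZD4, fragments of the 2 genes are told apart only by strand. How much of the FZD4 value came from the shared bases is not known, so its level and its fall are uncertain.

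FZD8 and FZD5, another closely related pair, were low. FZD8 had 2.21, 2.32 and 2.39 FPKM in the knockdown libraries, against 2.49, 2.89 and 3.52 FPKM in the control libraries. The knockdown libraries all lay below the control libraries, but the difference of -0.25 (interval -0.49 to -0.02) was not called (adjusted p = 0.0554). Without control library 1 it was called, at -0.34 (adjusted p = 0.0216), and over the 16 other settings that tested it the adjusted p ran from 0.0216 to 0.185. FZD5 had a mean just under the 1 FPKM filter, with 0.608, 0.670 and 0.708 FPKM in the knockdown libraries, against 1.35, 1.43 and 1.23 FPKM in the control libraries. The arms did not overlap, and with the minimum at 0.1 FPKM FZD5 was called lower (log2 fold change -0.49, adjusted p = 7.74e-04).

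The FZD genes summed to 49.7, 46.4 and 49.4 FPKM in the knockdown libraries, against 57.1, 56.4 and 56.0 FPKM in the control libraries. The sum in the knockdown was thus 0.859 times that in the control, with separate arms. Without FZD4, left out after the data were seen because of its overlap with PRSS23, the sum was 46.4, 43.5 and 45.9 FPKM in the knockdown libraries, against 45.1, 44.5 and 44.9 FPKM in the control libraries. The arms then overlapped, so the lower sum rested on FZD4. Of the full sum, FZD4 included, FZD1, FZD2 and FZD7 made up 64.2 ± 1.82% in the knockdown and 46.0 ± 1.76% in the control. FZD4 and FZD6 made up 13.3 ± 0.516% in the knockdown and 35.8 ± 2.14% in the control (SD, n = 3 each). FZD4, of uncertain level, held 6.67% of the full sum in the knockdown and 20.7% in the control. Of the sum without FZD4, FZD1, FZD2 and FZD7 made up 68.8 ± 1.70% in the knockdown and 58.0 ± 1.79% in the control. FZD6 made up 7.11 ± 0.290% in the knockdown and 19.1 ± 2.00% in the control of that smaller sum.

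The 3 DKK genes with a testable level, and SFRP1, the only such SFRP gene, were called lower, as were 35.9% of all tested genes. DKK1 (10:52314296-52318042, plus strand), the inhibitor that takes LRP5 and LRP6 out of canonical signalling and is itself a target of that branch in many cells, had 16.8, 15.8 and 16.4 FPKM in the knockdown libraries, against 160, 163 and 163 FPKM in the control libraries. The libraries of each arm were nearly alike and the arms were an order of magnitude apart. The means were 16.3 ± 0.466 FPKM in the knockdown and 162 ± 1.92 FPKM in the control, 9.92-fold lower in the knockdown (log2 fold change -3.23, SE 0.0395, adjusted p = 1.16e-10). It was the 94th largest fall of the 13434 tested genes. Its exons overlap those of PRKG1-AS1 on the opposite strand over 212 bases, a transcript of 1.45 ± 0.268 FPKM in the knockdown and 1.92 ± 0.465 FPKM in the control that was not called. In the knockdown DKK1 stood below SFRP1, DKK3 and DKK2, whereas in the control it was the most abundant of the 37 genes.

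DKK2, which can act as an inhibitor or, without Kremen proteins, as a weak activator, had 20.9, 16.5 and 19.9 FPKM in the knockdown libraries, against 34.4, 35.6 and 35.5 FPKM in the control libraries (log2 fold change -0.85, SE 0.0793, adjusted p = 1.95e-05). DKK3, the divergent member of the family, whose effect on Wnt signalling differs between cells, had 21.6, 20.7 and 19.8 FPKM in the knockdown libraries, against 50.3, 49.8 and 51.5 FPKM in the control libraries (log2 fold change -1.25, SE 0.0467, adjusted p = 6.17e-08). Both genes were lower in every knockdown library than in any control library, DKK2 1.84-fold and DKK3 2.44-fold by their means. The DKK sum was 56.1 ± 3.13 FPKM in the knockdown and 248 ± 2.99 FPKM in the control, 4.41-fold lower in the knockdown. DKK1 held 29.1 ± 0.811% of it in the knockdown, less than DKK3 at 36.9 ± 1.88% and DKK2 at 33.9 ± 2.42%, and 65.4 ± 0.168% in the control.

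SFRP1, which binds Wnts and Frizzleds, had 30.4, 29.9 and 31.5 FPKM in the knockdown libraries, against 53.4, 54.5 and 53.0 FPKM in the control libraries. The arms were separate, and the mean was 1.75-fold lower in the knockdown (log2 fold change -0.79, SE 0.0408, adjusted p = 4.46e-07). SFRP1 made up 99.2% of the SFRP sum in the knockdown and 99.6% in the control. It was the most abundant of the 37 genes in the knockdown, at 30.6 ± 0.824 FPKM, and the second most abundant in the control, at 53.6 ± 0.750 FPKM.

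**Figure D3:**
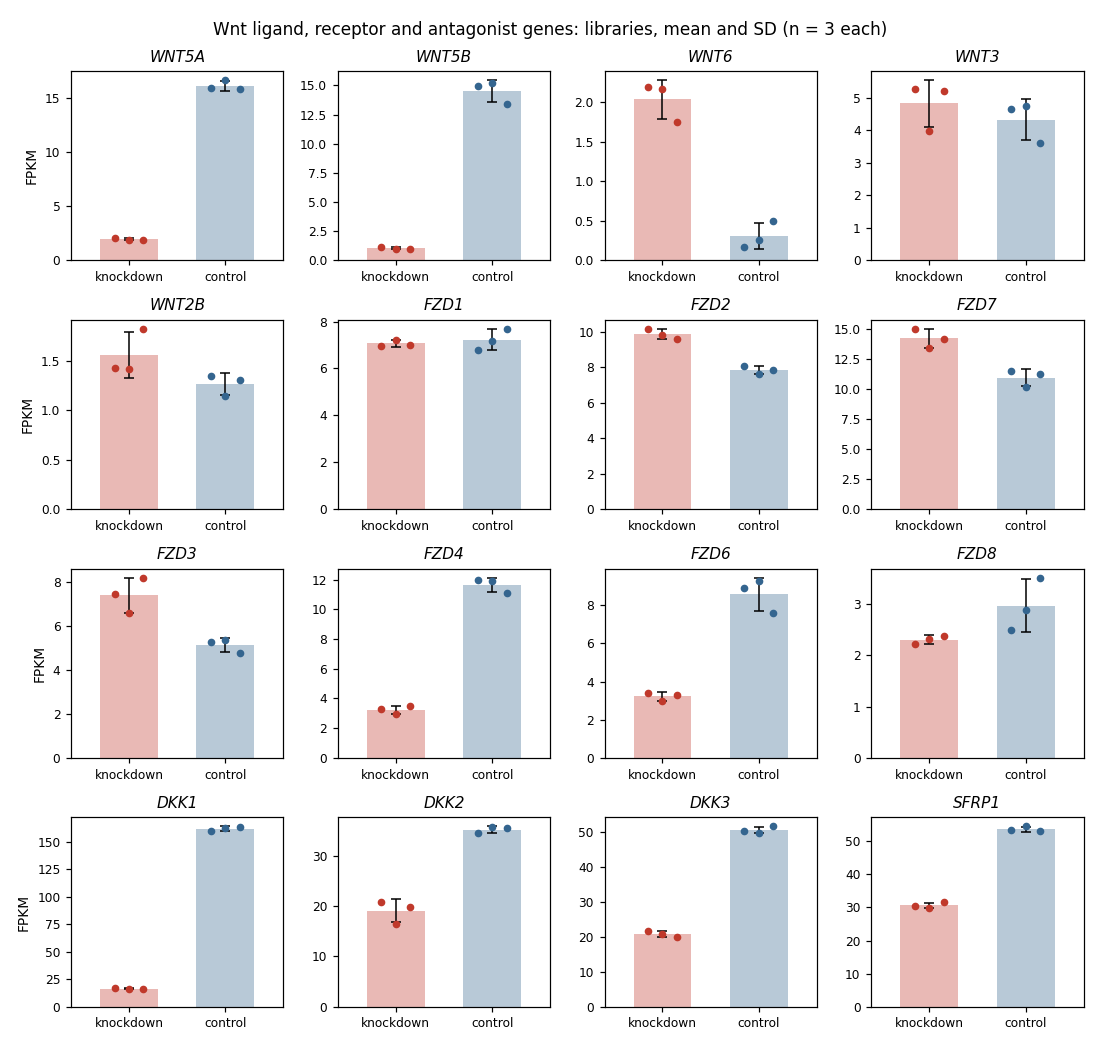
FPKM (y axis, linear from 0, a scale of its own for each gene) of the 16 tested ligand, receptor and antagonist genes in the knockdown and control libraries (x axis); points are libraries, bars the mean of each arm and error bars the SD (n = 3 each). DKK1 sits at 15.8 to 16.8 FPKM in the knockdown and 160 to 163 FPKM in the control, while the points of FZD1 and WNT3 overlap.

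Neighbouring genes were counted to see what else lay around the called genes, to be read beside the 35.9% of all tested genes called lower and the 30.5% called higher. Of the tested genes within 1000000 bases of a gene that fell, 4 of 5 around DKK3, 4 of 6 around FZD4, 5 of 7 around SFRP1, 5 of 10 around FZD6, 2 of 5 around DKK2, 1 of 3 around DKK1 and 1 of 7 around WNT5B were called lower. Called higher were none around DKK3, FZD4 and DKK1, 1 each around SFRP1, FZD6 and DKK2, and 3 around WNT5B, and the single tested neighbour of WNT5A was not called. Around the genes that rose, neighbours were also called lower, 10 of 15 around FZD7, 10 of 35 around FZD2 and 5 of 13 around FZD3, with 2, 12 and 5 called higher around FZD7, FZD2 and FZD3. Around DKK3 the largest fall was that of MICAL2, an actin-oxidising enzyme gene, with 1.27 ± 0.205 FPKM in the knockdown and 38.7 ± 1.11 FPKM in the control. Around FZD6 it was that of CTHRC1, a secreted protein that can enhance WNT5A signalling, with 3.77 ± 0.272 FPKM in the knockdown and 47.7 ± 2.41 FPKM in the control.

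The remaining genes were close to the limit of detection. WNT4, a ligand of kidney and gonad development, had 0.841, 0.873 and 0.604 FPKM in the knockdown libraries, against 0.894, 0.863 and 0.870 FPKM in the control libraries. FZD9 had 0.433 to 0.635 FPKM in the knockdown libraries, against 0.624 to 1.05 FPKM in the control libraries. Both overlapped between the arms. WNT16 had 0.0325 to 0.176 FPKM in the knockdown libraries, against 0.0907 to 0.296 FPKM in the control libraries. WNT8B had 0 to 0.294 FPKM in the knockdown libraries, against 0 to 0.178 FPKM in the control libraries. SFRP4, a secreted Frizzled-related protein, had 0 to 0.157 FPKM in the knockdown libraries, against 0.0911 to 0.208 FPKM in the control libraries. These 3 overlapped too. With the minimum at 0.1 FPKM, 23 of the 37 genes were tested, and 5 were called higher and 9 lower, by the addition of WNT10A and FZD5; of all 16933 genes then tested, 27.6% were called higher and 31.5% lower. With no minimum, 33 were tested, and 5 were called higher and 10 lower, by the further addition of WNT9A; of all 20090 genes then tested, 23.2% were called higher and 26.5% lower. WNT9A was listed at 0 in the 3 knockdown libraries, against 0.183, 0.191 and 0.0722 FPKM in the control libraries (adjusted p = 0.0121). It entered that fit only through its control libraries, so it could only be called lower.

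Steps between the low values allowed a rough reading of how little lay behind them. Scaled by relative depth, the values of 11 of the 17 genes under 1 FPKM and above 0 fell on whole multiples of their smallest value, within 0.1 of a whole number. Among the 11, WNT1 and WNT8A were above 0 only in knockdown library 1, so they fell on steps in any case. WNT10A stood at 5, 4 and 9 such steps in knockdown libraries 1 to 3, against 0, 1 and 0 in control libraries 1 to 3. WNT7B, a ligand that promotes dendrite growth in rodent neurons, stood at 0, 1 and 0 steps in the knockdown libraries, against 10, 2 and 12 in the control libraries. WNT9A stood at 0 steps in each knockdown library, against 3, 3 and 1 in the control libraries. WNT1, WNT3A, WNT7A, WNT8A, WNT10B, WNT11, SFRP2 and SFRP5 stood at 0 to 4 steps in every library. If 1 step is 1 fragment, a difference in these 8 genes was not detectable at this depth. On that reading the call of WNT9A with no minimum rested on 3 fragments or fewer in each library.

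The machinery around the ligands was read from 77 further genes of the pathway in 8 lists, some with genes in common, of which 56 were tested, and 25 were called higher, 19 lower and 12 not at all. Their median log2 fold change was 0.11, against -0.02 over all tested genes. These counts and those of each list are to be read beside 30.5% higher and 35.9% lower over all tested genes. Thus 19 lower of 56 is near the background and 25 higher is above it. Of the 3 tested genes of Wnt release, a list that also holds inactivating enzymes, 2 fell. WLS, the carrier that takes Wnts to the cell surface, had 13.2, 13.1 and 12.0 FPKM in the knockdown libraries, against 36.4, 35.9 and 34.7 FPKM in the control libraries, with separate arms (log2 fold change -1.41, adjusted p = 5.97e-08). TRABD2B, a protease of the Tiki family that trims and inactivates Wnts, had 0.193 ± 0.00991 FPKM in the knockdown and 1.89 ± 0.0579 FPKM in the control (log2 fold change -1.27, adjusted p = 2.96e-06). TRABD2B passed the filter only through its control libraries and fell under it when any of them was left out. PORCN, which attaches the lipid, was not called.

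Of the 6 co-receptors and other Wnt receptors, 3 rose, 2 fell and LRP6 was not called. ROR1, a receptor for WNT5A, had 15.6, 14.5 and 14.9 FPKM in the knockdown libraries, against 6.00, 5.57 and 5.15 FPKM in the control libraries. The arms were separate, in the direction opposite to that of its ligand (log2 fold change 1.28, adjusted p = 4.34e-07). ROR2, the second receptor of that kind, had 4.43 ± 0.247 FPKM in the knockdown and 2.04 ± 0.105 FPKM in the control (log2 fold change 0.83, adjusted p = 1.56e-05). LRP5 was higher, at 16.1 ± 1.48 FPKM in the knockdown and 11.3 ± 0.564 FPKM in the control (adjusted p = 4.16e-04). PTK7, a polarity co-receptor, was lower, at 31.2 ± 1.37 FPKM in the knockdown and 43.6 ± 1.53 FPKM in the control (adjusted p = 4.05e-05), as was RYK at a log2 fold change of -0.27 (adjusted p = 8.20e-04), a call lost after quantile normalization.

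Of the 3 tested genes of R-spondin signalling and receptor turnover, which set how many Frizzleds stay on the surface, 2 fell. LGR5, an R-spondin receptor and stem cell marker, had 27.2 ± 2.07 FPKM in the knockdown and 60.5 ± 0.715 FPKM in the control (log2 fold change -1.13, adjusted p = 3.46e-07). LGR4, its relative, had 2.51 ± 0.278 FPKM in the knockdown and 5.96 ± 0.387 FPKM in the control (log2 fold change -0.99, adjusted p = 1.14e-05). ZNRF3, a ligase that removes Frizzleds, was not called. Of the 2 tested genes among other extracellular antagonists, FRZB was not called and KREMEN1, which helps Dickkopf-1 to remove LRP6, was lower by -0.22 with overlapping arms (adjusted p = 0.0377), a call lost in 7 of 17 other settings, among them those without knockdown library 1 or 3 and without control library 1 or 3 (adjusted p over all settings 0.0128 to 0.124).

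Among 18 cytoplasmic transducers, 10 rose, 3 fell and 5 were not called, with a median log2 fold change of 0.17. Of the rises, GSK3A and CTNNBIP1 were called in 10 of 17 other settings each. GSK3A lost its call without knockdown library 2, control library 1 or control library 2, and CTNNBIP1 without knockdown library 1 or 3 or control library 1 or 2. Of the falls, CTNNB1 and CSNK1A1 lost their call after quantile normalization. APC2, a scaffold of the β-catenin destruction complex enriched in neurons, had 14.0 ± 1.10 FPKM in the knockdown and 4.21 ± 0.107 FPKM in the control (log2 fold change 1.52, adjusted p = 1.84e-07). AXIN2, a scaffold of the same complex and a widely used readout of canonical signalling, had 4.05, 4.50 and 4.54 FPKM in the knockdown libraries, against 1.45, 1.46 and 1.24 FPKM in the control libraries (log2 fold change 1.17, adjusted p = 3.10e-06). AMER1 was higher too (0.68, adjusted p = 1.60e-05), while APC was lower, at 11.4 ± 0.931 FPKM in the knockdown and 18.2 ± 0.170 FPKM in the control (adjusted p = 3.27e-05). CTNNB1, which encodes β-catenin, was lower, at 95.9 ± 4.82 FPKM in the knockdown and 121 ± 0.680 FPKM in the control (log2 fold change -0.34, adjusted p = 1.50e-04), and stood at 0.0044 after quantile normalization.

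Of the 10 tested nuclear factors, 4 rose, 3 fell and 3 were not called, and 1 of the falls, TLE3, was called in 7 of 17 other settings and, of those leaving out a library, only without knockdown library 2. The pair of BCL9 proteins, which bridge β-catenin to its activators, split. BCL9 had 23.0 ± 0.701 FPKM in the knockdown and 14.4 ± 0.446 FPKM in the control (log2 fold change 0.64, adjusted p = 6.09e-06). BCL9L had 6.09 ± 0.512 FPKM in the knockdown and 14.4 ± 0.897 FPKM in the control (log2 fold change -1.12, adjusted p = 1.91e-06). TLE1, a co-repressor, was higher (0.93, adjusted p = 4.92e-06), and TCF7L2, the most familiar TCF partner of β-catenin, was lower (-0.45, adjusted p = 3.64e-05). LEF1 was too low to test, at 0.0264 to 0.0705 FPKM in the knockdown libraries, against 0.350 to 0.563 FPKM in the control libraries.

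Genes commonly listed as targets of canonical signalling moved both ways, with 3 of 8 tested higher, 3 lower and 2 not called. MYC had 49.0 ± 0.645 FPKM in the knockdown and 14.2 ± 0.868 FPKM in the control (log2 fold change 1.72, adjusted p = 1.68e-08). AXIN2, given above, and NKD1, a feedback inhibitor, were also higher, NKD1 with 2.36 ± 0.130 FPKM in the knockdown and 0.552 ± 0.0504 FPKM in the control (adjusted p = 6.16e-06). NKD1 passed the filter only through its knockdown libraries. TNFRSF19, a receptor of the TNF family, had 1.31 ± 0.161 FPKM in the knockdown and 16.1 ± 0.985 FPKM in the control (log2 fold change -2.89, adjusted p = 8.24e-09). CCND1, cyclin D1, was lower by a log2 fold change of -1.44 (adjusted p = 8.15e-09), and the third lower gene was LGR5.

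All 10 tested genes of planar cell polarity, the branch that aligns cells within a sheet, were called, 6 higher and 4 lower. Over all tested genes, 66.3% were called. The call of DAAM1, 1 of the lower genes, was kept in 16 of 17 other settings (highest adjusted p = 0.0512). CELSR1, among the lower genes, had 0.491 ± 0.0696 FPKM in the knockdown and 1.56 ± 0.0862 FPKM in the control. It passed the filter only through its control libraries and fell under it when any of them was left out. PRICKLE1, a cytoplasmic core component, had 54.6 ± 3.18 FPKM in the knockdown and 9.62 ± 0.731 FPKM in the control (log2 fold change 2.39, adjusted p = 9.35e-09). PRICKLE3 had 1.05 ± 0.189 FPKM in the knockdown and 3.79 ± 0.504 FPKM in the control (log2 fold change -1.22, adjusted p = 1.39e-05). VANGL1, a membrane core component, was lower (-1.13, adjusted p = 6.62e-06) and its relative VANGL2 higher (0.49). DAAM2, a formin that links Dishevelled to actin, was higher, at 3.39 ± 0.202 FPKM in the knockdown and 1.04 ± 0.0802 FPKM in the control (log2 fold change 1.11, adjusted p = 4.59e-06). PRICKLE1 and PRICKLE3, and VANGL1 and VANGL2, were thus called in opposite directions, as FZD3 and FZD6 were. These pairs were picked after their values were seen. CELSR2 and CELSR3 were both called higher (0.69 and 0.64), unlike their relative CELSR1.

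**Figure D4:**
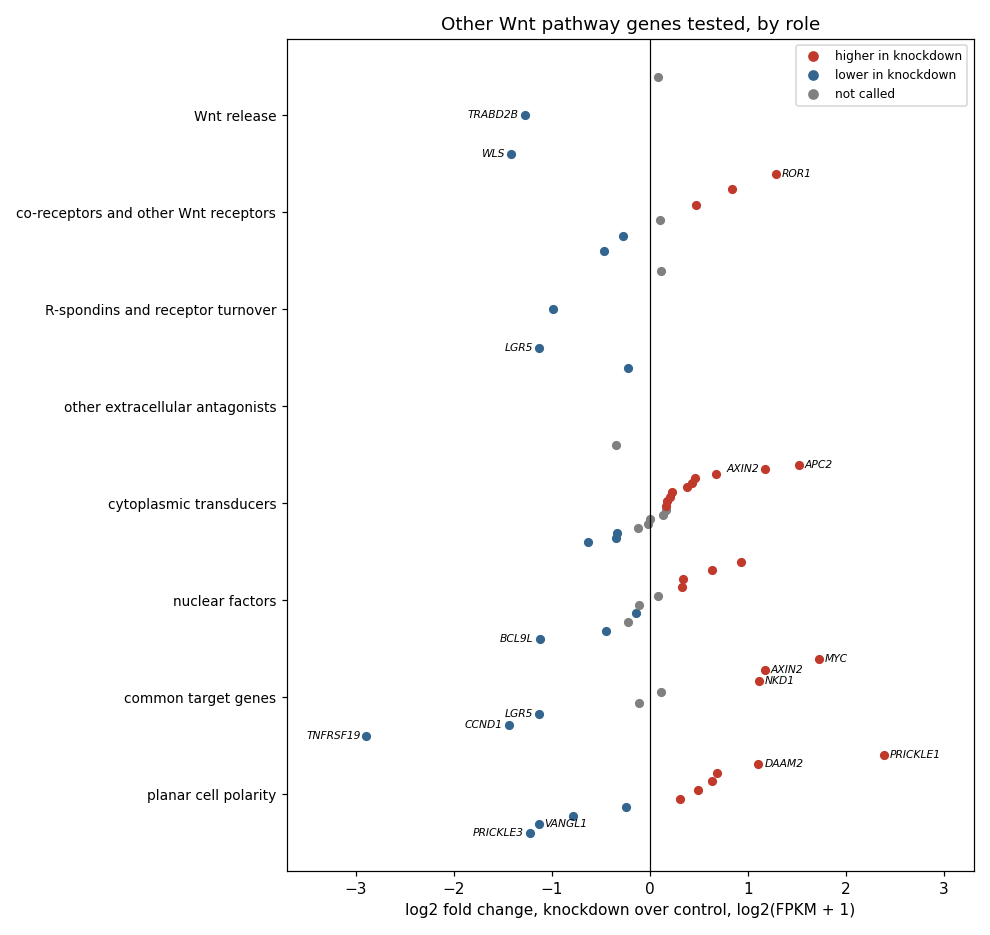
Log2 fold change, knockdown over control on the log2(FPKM + 1) scale (x axis), of the 56 tested other genes of the pathway by role (y axis); each point is a gene, coloured by its call, and genes past a 2-fold change are named. AXIN2, LGR5, TCF7 and ZNRF3 stand in 2 lists each. PRICKLE1 lies farthest right at 2.39 and TNFRSF19 farthest left at -2.89. In the row of Wnt release, the carrier WLS and the Wnt-inactivating protease TRABD2B both lie left of -1.

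Markers of other cell states moved between the same arms, where 30.5% of all tested genes were called higher and 35.9% lower. Of 12 mesenchymal markers, 10 were called lower, TWIST1 higher and SNAI2 not called. The summed level of the 12 was 646 to 660 FPKM in the knockdown libraries, against 2269 to 2306 FPKM in the control libraries. Of the 10 called lower, PRRX1, NT5E, CTGF and ANXA1 passed the filter only through their control libraries, so they could only be called lower. ANXA1 was listed at 0 in each knockdown library. Of 10 noradrenergic markers, 9 were tested, 8 were called higher and DBH lower, TH was listed at 0 throughout, and the summed level was 1062 to 1182 FPKM in the knockdown libraries, against 540 to 550 FPKM in the control libraries. Their part in the ligand, receptor and antagonist results was not tested.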

How the data were processed

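Libraries of poly(A) RNA from SH-SY5Y cells, 3 of the knockdown and 3 of the control, were prepared with a directional kit according to the labels. Groups and replicate numbers came from the sample titles. The authors deposited FPKM values, 1 column for each library. The submitters' processing notes name TopHat2 2.1.0, SAMtools, Cuffdiff 2.2.1 and hg38. The sources used here give no role for each tool, no annotation and no strand setting.

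The knockdown was compared with the control on log2(FPKM + 1) for genes that averaged at least 1 FPKM, by limma 3.58.1 with an intensity trend in R 4.3.3, with two-sided tests and Benjamini-Hochberg adjustment over all tested genes, after the test had been checked on simulated data. FPKM are not counts, so no count model was used. SNORD3A was listed at 1199100 FPKM or more in all knockdown libraries and at 0 in all control libraries. RN7SK was listed at 0 in all knockdown libraries and at 217308 FPKM or more in all control libraries. A value of exactly 0 in either arm may therefore be an estimate that failed. No pair of libraries shared more than 1 identical non-zero value. Relative depth was the modal ratio to control library 1 of values below 0.3 FPKM, over 1363 to 2080 genes.

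Tested genes of the 4 families are named with all their values. Of each other list up to 4 called genes of largest change are named, with single genes behind a small count and with relatives of the named genes, chosen after their values were seen. The families and lists were chosen with earlier results of these data known. Gene positions are 1-based, from GENCODE v29, and promoters are from RefSeq. Alternatives were 2 pseudocounts, 3 minimum means, 3 scalings, a replicate block, no trend, robust fitting and each library left out. Another list of cell type markers is not reported here.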

Additional observations from a re-analysis of the deposited data

How the results depend on the processing

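Across 17 other settings, the 12 called ligand, receptor and antagonist genes kept their direction and their call wherever they passed the filter, and the counts of calls, over these genes, over the other pathway genes and over the table, stayed within 1.5 times their value. WNT6 fell under the filter at a minimum of 5 FPKM and without knockdown library 1 or 2. FZD8 was also called with equal sums without 6 small RNAs (-0.28, adjusted p = 0.0425) and with no trend (adjusted p = 0.0441). Quantile normalization shifted the median log2 fold change of all genes to 0.09, against -0.02, and gave 5390 calls higher and 3769 lower, 58.8% of calls higher, against 4092 and 4817, 45.9%. It reversed FZD1, which was not called, to 0.054, and CTNNB1 to 0.0044. Leaving out single libraries gave FZD1 from -0.064 to 0.014. Whether the library numbers pair the arms is unknown. Deviations of same-numbered libraries had correlations of -0.0185, -0.185 and -0.0911, which cannot settle it with 3 libraries an arm. A replicate block gave 3894 calls higher and 4667 lower, with 4 and 8 of the 16 tested genes called as before. Values under 1 FPKM rest on few fragments, and the low depth of knockdown library 2 limits them most.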
